A study of Homo sapiens and Mus musculus with 69 samples.

Results

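The RNA-Seq libraries described here came from H82 cells, a human small cell lung cancer (SCLC) line that the labels call NCI-82, which carried a knockout (KO) of *STING1* and an inducible NOTCH1 vector. The rule took the 3 libraries of this line grown with doxycycline (58, 59 and 60, the numbers in their titles) and the 3 grown without it (55, 56 and 57), 6 of the 69 libraries of the series, and every gene in the table. All 6 libraries share the *STING1* KO and the vector, which expresses the intracellular domain of NOTCH1 (N1ICD) when doxycycline is added, so doxycycline is the labelled difference between the groups. KO lines were made as single-cell clones, and cells given doxycycline were collected after long-term culture as adherent cells, that is, cells that trypsin had to release. The labels give neither the clone nor the time nor the dose, so effects of the KO, the clone and the culture cannot be told apart when this line is set beside others. Within this line, time in culture and the taking of adherent cells may also differ between the groups with and without doxycycline. Their effects cannot be told apart from that of N1ICD. The comparison lines were H82 with the vector and no KO (called intact here; 4, 5 and 6 without and 7, 8 and 9 with doxycycline) and H82 with the vector and a *REST* KO (28, 29 and 30 without and 31, 32 and 33 with doxycycline). The question was which parts of the transcriptional response to doxycycline in H82 cells with the vector appeared in the line with the *STING1* KO. Nothing states that the 3 libraries of a group were separate cultures, so *P* values measure the spread between libraries, which may be technical.

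Notch receptors are cut when a ligand on a neighbouring cell binds them, and the freed intracellular domain joins RBPJ and MAML coactivators on DNA to switch on *HES* and *HEY* repressor genes. Most SCLC is neuroendocrine, driven by factors such as NEUROD1, and Notch activity is known to move SCLC cells towards a non-neuroendocrine state. STING is a membrane protein of the endoplasmic reticulum that responds to cyclic GMP-AMP, which cGAS makes on meeting DNA in the cytosol. It then recruits TBK1, which activates IRF3, and it also feeds NF-κB, so type I interferon, interferon-stimulated genes and chemokines follow. Interferon raises the MHC class I pathway, which cuts proteins in the immunoproteasome, moves peptides into the endoplasmic reticulum through TAP and shows them to T cells on HLA molecules.

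Levels are given as log2(RPKM + 1), reads per kilobase of gene scaled to library size, on a log scale as deposited, always in the order of libraries 55, 56 and 57 without and 58, 59 and 60 with doxycycline. A log2 fold change is the mean with doxycycline minus the mean without it on that scale, which understates changes of genes with low values. A gene was called when its Benjamini-Hochberg adjusted *P* in limma was under 0.05 and its log2 fold change was at least 1 in size. Library sizes relative to the other H82 libraries, read from the steps between low values, were 0.685 to 0.700 without and 0.784 to 0.787 with doxycycline in the *STING1* KO and 0.950 to 1.356 elsewhere. The depth itself is unknown, since no counts were used. Libraries of a *STING1* KO group correlated across genes with r between 0.979 and 0.993. In the intact and *REST* KO groups r ran from 0.973 (intact libraries 4 and 5) to 0.997 (*REST* KO libraries 28 and 29). Bulk RNA cannot tell fewer cells of a type from less RNA per cell.

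*NOTCH1* (chromosome 9, positions 139388885 to 139440500, hg19), the gene whose intracellular part the vector carries, was at 2.15, 1.77 and 1.89 without and at 5.97, 7.41 and 7.48 with doxycycline (log2 fold change 5.02 ± 0.44 SE, adjusted *P* = 5.09e-08). The groups did not overlap, and library 58 was the lowest of the induced libraries. Reads of the vector and of the gene itself were not separated in these values. In the other lines *NOTCH1* stood at 1.16 ± 0.29 without and 4.86 ± 0.66 with doxycycline (SD, n = 3) in intact cells and at 1.32 ± 0.13 without and 9.55 ± 1.05 with doxycycline (SD, n = 3) in the *REST* KO.

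*STING1*, listed under its older symbol *TMEM173* (chromosome 5, positions 138855118 to 138862520, hg19), was at 0.55, 0.52 and 0.11 without and 1.27, 1.53 and 2.04 with doxycycline (log2 fold change 1.22 ± 0.18 SE, adjusted *P* = 3.28e-05). It rose in all 3 induced libraries, and the intact line gave 0.01 ± 0.03 without and 1.11 ± 0.05 with doxycycline (SD, n = 3). The rise did not differ detectably between the lines (difference 0.12 ± 0.26 SE, adjusted *P* = 0.823). Quantile normalisation took the log2 fold change under 1 (0.95). Gene-level RNA does not check a KO made by cutting the coding sequence, since an edited gene can still be transcribed, so the KO rests here on the labels. The study examined KO clones by immunoblot, a protein measure that is not part of the values used here, and the labels do not tie the sequenced cells to a clone. *CGAS*, listed as *MB21D1*, stayed under the filter on low values, between 0.08 and 0.61 in the 6 libraries.

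Between the groups with and without doxycycline, 2815 of 13903 tested genes were called in the *STING1* KO, or 20.2%. Of these 1693 (12.2%) rose and 1122 (8.07%) fell, and the median log2 fold change of all tested genes was 0.0135. In the intact line 3770 genes (27.1%) were called, and in the *REST* KO 4157 (29.9%). The genes that rose in the *STING1* KO included 1225 that also rose in intact cells, 72.4% of the former and 59.9% of the latter. Of those that fell, 779 also fell in intact cells, which is 69.4% and 45.1% of each list. Opposite calls were few, at 17 and 4 genes. With the *REST* KO, 1148 of the rising and 797 of the falling genes were shared. The 3 responses rest on separate libraries, and across the 13903 genes, which are not independent replicates, the response of the *STING1* KO correlated with that of intact cells (r = 0.8114, Spearman's rho = 0.7437) and with that of the *REST* KO (r = 0.7533, rho = 0.7218), libraries of all lines being scaled in 1 table.

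The genes that rose most, among those with a mean log2 level of at least 2 in the higher group, were keratins, matrix genes and a developmental RNA. *KRT17*, a basal keratin, went from 1.50, 0.00 and 0.00 to 10.20, 11.19 and 11.44 (log2 fold change 10.45 ± 0.52 SE, adjusted *P* = 3.98e-11). *H19*, an imprinted noncoding RNA, went from 4.48, 2.50 and 4.13 to 13.27, 13.72 and 13.73 (log2 fold change 9.87 ± 0.85 SE, adjusted *P* = 4.94e-08). The simple-epithelial keratin pair *KRT8* and *KRT18* rose by 8.81 and 7.67, so both partners of that filament moved together. *COL3A1* (fibrillar collagen), *SLIT3* (a guidance ligand), *NID2* (a basement membrane protein), *DAAM2* (a Wnt and actin regulator) and *CTGF* (a YAP target) rose by 8.24, 8.09, 8.02, 7.87 and 7.47. *PLA2G2A*, a secreted phospholipase, was listed at 0 in all 3 uninduced libraries and at 7.53, 9.94 and 9.42 in the induced ones. *EVA1A* was likewise listed at 0 without and at 7.52, 6.71 and 7.17 with doxycycline. Groups that did not overlap were a condition for naming these genes, so their separation is no added result.

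Among the genes that fell most were transcription factors of neural and muscle lineages and photoreceptor genes. *NEUROD1* (chromosome 2, positions 182533022 to 182545554, hg19), the proneural factor that defines a subtype of SCLC, was at 12.28, 11.80 and 12.67 without and 2.41, 6.68 and 3.26 with doxycycline (log2 fold change -8.13 ± 0.76 SE, adjusted *P* = 1.22e-07), and library 59 kept the highest level of the induced group. *CHRNA1*, the muscle acetylcholine receptor alpha subunit, and *MYOD1*, the muscle determination factor, fell by 7.39 and 6.48 on the log2 scale. The photoreceptor genes *RBP3* and *NXNL1* fell by 6.64 and 6.80, and *RP1*, at 7.43, 8.09 and 8.00 without doxycycline, was listed at 0 in all 3 libraries with it. *DCT* (melanin synthesis), *PRDM1* (a repressor) and the noncoding RNAs *DIAPH2-AS1* and *LINC00299* fell by 6.94, 6.52, 6.57 and 6.63. *LINC00299* was at 5.15, 0.00 and 0.00 with doxycycline, so its remaining level came from library 58. The pseudogene *GCSHP3* was at 7.88, 7.31 and 7.28 without doxycycline and listed at 0 with it. Its reads can belong to its parent gene, and it was not called without any 1 of libraries 55, 56, 57, 58, 59 and 60 (adjusted *P* 0.0736 to 0.0857).

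**Figure D1:**
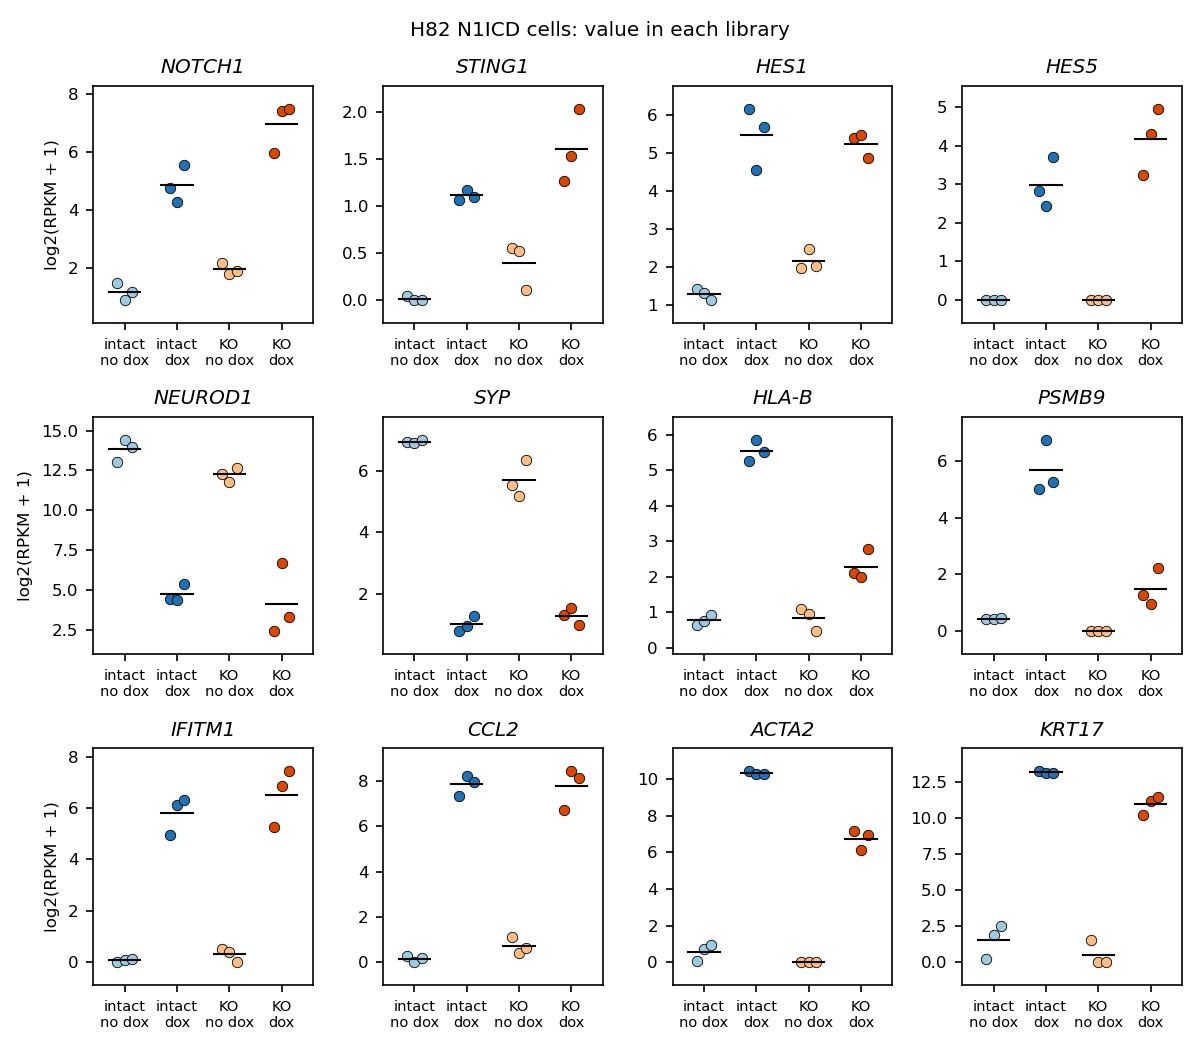
Level of 12 genes, in log2(RPKM + 1) on the vertical axis (each panel has its own scale), in intact and *STING1* KO H82 cells without (no dox) and with (dox) doxycycline; points are libraries and bars the means of 3. Induced *STING1* KO libraries of *HLA-B* lie at 2.10, 1.98 and 2.77, below every induced intact library, whereas those of *CCL2* overlap the intact ones.

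The Notch genes responded in this line. Of the 9 receptors and ligands tested (of 11), 4 rose and 2 fell, beside 12.2% and 8.07% of all tested genes. The 4 include *NOTCH1*, which the vector carries, so its rise is no added result. Besides *NOTCH1*, the receptor *NOTCH3* rose from 0.24, 0.16 and 0.20 to 2.89, 4.53 and 4.48 (log2 fold change 3.77 ± 0.38 SE, adjusted *P* = 4.00e-07), whereas *NOTCH2* was at 4.94, 4.78 and 4.79 and 4.83, 5.50 and 4.70 and was not called. The activating ligands *JAG1* and *DLL4* rose by 6.09 and 2.86. *DLL3*, a ligand that inhibits Notch within the same cell and is typical of neuroendocrine SCLC, fell from 4.92, 5.02 and 5.07 to 1.65, 1.79 and 1.53 (log2 fold change -3.34 ± 0.14 SE, adjusted *P* = 7.25e-12), with no overlap. *JAG2* fell by 1.14, and was not called without library 59 (log2 -0.98, adjusted *P* = 0.0104). No difference from the response of intact cells was called for any of the 9 genes.

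Of the 9 Notch target genes tested, 8 rose and 1 fell, against the 12.2% and 8.07% of all tested genes. *HES1* was at 1.98, 2.47 and 2.04 without and 5.39, 5.48 and 4.86 with doxycycline (log2 fold change 3.08 ± 0.34 SE, adjusted *P* = 1.21e-06). *HES4* went from 1.07, 0.86 and 0.81 to 4.94, 5.71 and 5.75 (log2 fold change 4.55 ± 0.24 SE, adjusted *P* = 7.22e-11). *HES5* was listed at 0 in all 3 uninduced libraries and stood at 3.24, 4.29 and 4.95 in the induced ones. All 3 encode repressors of the HES family, and their groups did not overlap. *HEY1*, *HEY2* and *HEYL*, repressors that pair with HES proteins, rose by 3.26, 1.57 and 1.19, and the feedback gene *NRARP* by 3.17. *HEYL* was not called without library 59 (log2 0.94, adjusted *P* = 0.0149). *DTX1*, an E3 ligase of the pathway, went from 0.07, 0.16 and 0.10 to 0.96, 1.24 and 1.64, and was not called without library 60 (log2 0.99, adjusted *P* = 0.00417). *HES7*, the oscillator of somite formation, fell from 2.46, 2.54 and 2.55 to 0.12, 0.83 and 0.67 (log2 fold change -1.98 ± 0.21 SE, adjusted *P* = 5.84e-07). The median log2 fold change of the tested members was 3.08 in the *STING1* KO, 1.59 in intact cells and 3.77 in the *REST* KO.

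Compared with the intact line, the responses of 2 target genes differed upward in the *STING1* KO. For *HES4* the difference of the responses was 1.92 ± 0.34 SE, adjusted *P* = 0.00139, with intact levels of 0.16 ± 0.12 without and 2.79 ± 0.51 with doxycycline (SD, n = 3); with 0.1 in place of 1 added to RPKM it was 0.61 (adjusted *P* = 0.598). For *DTX1* it was 2.13 ± 0.32 SE, adjusted *P* = 3.18e-04. Intact levels of *DTX1* were 1.88 ± 0.15 without and 0.92 ± 0.44 with doxycycline (SD, n = 3), so its mean moved in opposite directions in the lines. The count was 4 without library 58 and also without library 9. Across all genes 990 differences (7.12%) were called, 544 (3.91%) upward and 446 (3.21%) downward. *HES1* rose in both lines with a difference of -1.10 ± 0.49 SE, adjusted *P* = 0.17.

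Because the HES genes are direct targets of the NOTCH1 and RBPJ complex in textbook accounts, the 250 bases before their annotated starts are shown (RefSeq, GRCh38.p14), read 5′ to 3′ on the strand of the gene. Capitals mark the core of the RBPJ site, TGGGAA, or its complement on the other strand, TTCCCA.
HES1, chr3:194135898-194136147, plus strand: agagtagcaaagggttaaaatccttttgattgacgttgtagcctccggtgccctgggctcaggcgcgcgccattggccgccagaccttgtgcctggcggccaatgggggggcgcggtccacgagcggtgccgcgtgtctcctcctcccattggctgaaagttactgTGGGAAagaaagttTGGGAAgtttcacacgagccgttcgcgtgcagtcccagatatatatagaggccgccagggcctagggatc
HES4, chr1:1000098-1000347, minus strand: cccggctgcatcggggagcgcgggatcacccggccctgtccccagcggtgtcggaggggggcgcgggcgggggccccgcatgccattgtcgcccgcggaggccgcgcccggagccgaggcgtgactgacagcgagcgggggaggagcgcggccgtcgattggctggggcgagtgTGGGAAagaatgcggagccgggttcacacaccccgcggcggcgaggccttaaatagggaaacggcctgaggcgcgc
HES5, chr1:2530264-2530513, minus strand: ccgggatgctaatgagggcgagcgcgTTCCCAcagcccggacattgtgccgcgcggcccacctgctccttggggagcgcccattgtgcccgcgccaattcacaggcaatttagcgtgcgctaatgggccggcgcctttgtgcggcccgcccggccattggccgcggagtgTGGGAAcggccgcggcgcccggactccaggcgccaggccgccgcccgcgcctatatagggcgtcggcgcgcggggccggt
*HES1* held 2 matches, 84 and 70 bases before the start, *HES4* held 1 at 76 bases and *HES5* held 2 at 224 and 80 bases. Searched on both strands from 250 bases before to 50 after the start, TGGGAA was present for 5 of the 7 Notch target genes with a promoter in the table (71.4%) and for 28.0% of the 10346 tested genes with one. It was present for 29.2% of the genes that rose and 28.1% of those that fell. A match describes letters and not binding.

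Of 21 tested regulators of the pathway, 3 fell and none rose, beside 8.07% and 12.2% of all tested genes. *HES6*, which counteracts HES1 and marks neural progenitors, fell from 5.33, 5.03 and 5.59 to 2.42, 2.66 and 2.18 (log2 fold change -2.90 ± 0.30 SE, adjusted *P* = 5.60e-07). *LFNG*, a glycosyltransferase that tunes ligand choice, fell by 2.02 and the coactivator *MAML3* by 1.05, the latter not called without any 1 of libraries 57 and 60 (log2 -0.93 to -0.78, adjusted *P* 0.052 to 0.0777). *RBPJ*, the DNA-binding partner, was at 3.85, 3.67 and 3.55 and 2.87, 2.99 and 2.84 and did not reach the fold limit (log2 fold change -0.79 ± 0.21 SE, adjusted *P* = 0.00568). Among subunits of gamma-secretase, which frees the intracellular domain, *NCSTN*, *APH1A*, *APH1B* and *PSENEN* were not called, and their log2 fold changes ran from -0.94 to 0.60.

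*REST*, a repressor of neuronal genes and a known Notch target, was at 5.35, 5.26 and 5.17 without and 5.72, 5.75 and 5.67 with doxycycline, a small shift that was not called (log2 fold change 0.46 ± 0.22 SE, adjusted *P* = 0.109), although the groups did not overlap. In intact cells it stood at 4.64 ± 0.19 without and 6.31 ± 0.18 with doxycycline (SD, n = 3) and was called. The response was smaller in the *STING1* KO (difference -1.22 ± 0.31 SE, adjusted *P* = 0.0195), and this was not called without library 55 (log2 -1.17, adjusted *P* = 0.0519). The KO line began higher. Of the 9 genes of the REST and LSD1 complex tested, *KDM1A*, which encodes LSD1, fell by 1.06 and the corepressor *RCOR2* by 1.54. *KDM1A* was not called without any 1 of libraries 57 and 58 (log2 -0.96 to -0.86, adjusted *P* 0.00102 to 0.00138).

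The neuroendocrine genes fell in part. Of 32 tested genes (of 40), 9 fell and 7 rose, beside 8.07% and 12.2% of all tested genes. In intact cells 21 fell and 3 rose, beside 12.4% and 14.7%. The median log2 fold change of the tested members was -0.46 in the *STING1* KO, -2.39 in intact cells and -0.57 in the *REST* KO, and with 0.1 added to RPKM the first was -0.87. *SYP*, synaptophysin of secretory vesicles, went from 5.56, 5.20 and 6.36 to 1.31, 1.54 and 0.97 (log2 fold change -4.43 ± 0.23 SE, adjusted *P* = 5.07e-11). *CHGA*, the granule protein chromogranin A, went from 2.86, 2.67 and 4.21 to 0.19, 0.44 and 0.38 (log2 fold change -2.91 ± 0.34 SE, adjusted *P* = 2.45e-06). *INSM1* and *INSM2*, zinc finger factors of neuroendocrine cells, fell by 2.00 and 2.77, the vesicle calcium sensor *SYT1* by 3.81, *RTN1* by 3.14 and the neurofilament *NEFL* by 1.73. *POU3F2*, a neural POU factor, fell by 1.09 and was not called without any 1 of libraries 55, 57 and 58 (log2 -1.03 to -0.78, adjusted *P* 0.0844 to 0.161).

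The 7 members that rose were mostly genes of peptide hormone processing and neurites. *PCSK1*, a convertase that cuts prohormones, was listed at 0 in the 3 uninduced libraries and at 3.94, 4.82 and 6.52 in the induced ones. *PCSK2*, the second convertase, rose from 1.03, 0.81 and 0.91 to 3.67, 5.66 and 4.70 (log2 fold change 3.76 ± 0.49 SE, adjusted *P* = 7.04e-06). *SCG5*, the chaperone of that convertase, rose by 2.14. *DCX*, a microtubule protein of migrating neurons, rose from 0.07, 0.07 and 0.07 to 3.20, 3.15 and 2.34 (log2 fold change 2.83 ± 0.34 SE, adjusted *P* = 2.83e-06), and *L1CAM*, an adhesion molecule, by 1.69. *CALCA*, the calcitonin gene, was listed at 0 without and at 1.21, 1.03 and 1.47 with doxycycline. *VGF*, a granule peptide gene, rose by 1.14 and was not called without library 60 (log2 0.85, adjusted *P* = 0.063).

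For 16 of the 32 neuroendocrine genes the response in the *STING1* KO differed from that in intact cells, each time upward, against 3.91% of all tested genes called in that direction. The KO line began lower: the median level of the list without doxycycline was 1.34 in the *STING1* KO and 4.28 in intact cells. With doxycycline the medians were 1.26 in the *STING1* KO and 1.90 in intact cells. Genes near 0 without doxycycline cannot fall far on this scale, so an upward difference need not mean a higher induced level. *STMN2*, a neuronal tubulin regulator, was at 0.38, 0.54 and 1.23 without and 0.00, 0.00 and 0.18 with doxycycline in the KO and at 8.03 ± 1.96 without and 2.37 ± 0.56 with doxycycline (SD, n = 3) in intact cells (difference 5.01 ± 0.93 SE, adjusted *P* = 0.00219). *NEFM*, a neurofilament, was at 2.84, 3.26 and 3.26 and 2.18, 3.06 and 2.61, whereas intact cells went from a mean of 6.54 to 2.01 (difference 4.02 ± 0.39 SE, adjusted *P* = 3.21e-06). For *CHGB*, *MYT1*, *CRMP1*, *INA* and *TUBB3* the differences were 3.25, 2.81, 2.18, 2.41 and 2.85. *PCSK2* rose in the KO and not in intact cells, where it was at 4.93 ± 0.60 without and 4.21 ± 0.84 with doxycycline (SD, n = 3; difference 4.47 ± 0.69 SE, adjusted *P* = 4.66e-04). *CHGA* and *SYP* fell in both lines and less in the KO (differences 2.87 and 1.53). The difference for *NEUROD1* was 0.96 ± 1.07 SE, adjusted *P* = 0.637. Of the 16 calls, that of *NCAM1* was not made without any 1 of libraries 55, 56, 59, 60, 5, 6 and 8 (log2 1.55 to 1.81, adjusted *P* 0.0516 to 0.0686), that of *POU3F2* was not made without any 1 of libraries 56, 60, 6 and 8 (log2 1.89 to 2.00, adjusted *P* 0.0501 to 0.0549), and that of *ST18* was not made without library 6 (log2 1.40, adjusted *P* = 0.0583). Against the *REST* KO, 4 members differed upward and 8 downward, beside 5.84% and 7.14% of all tested genes (13.0% in either direction).

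**Figure D2:**
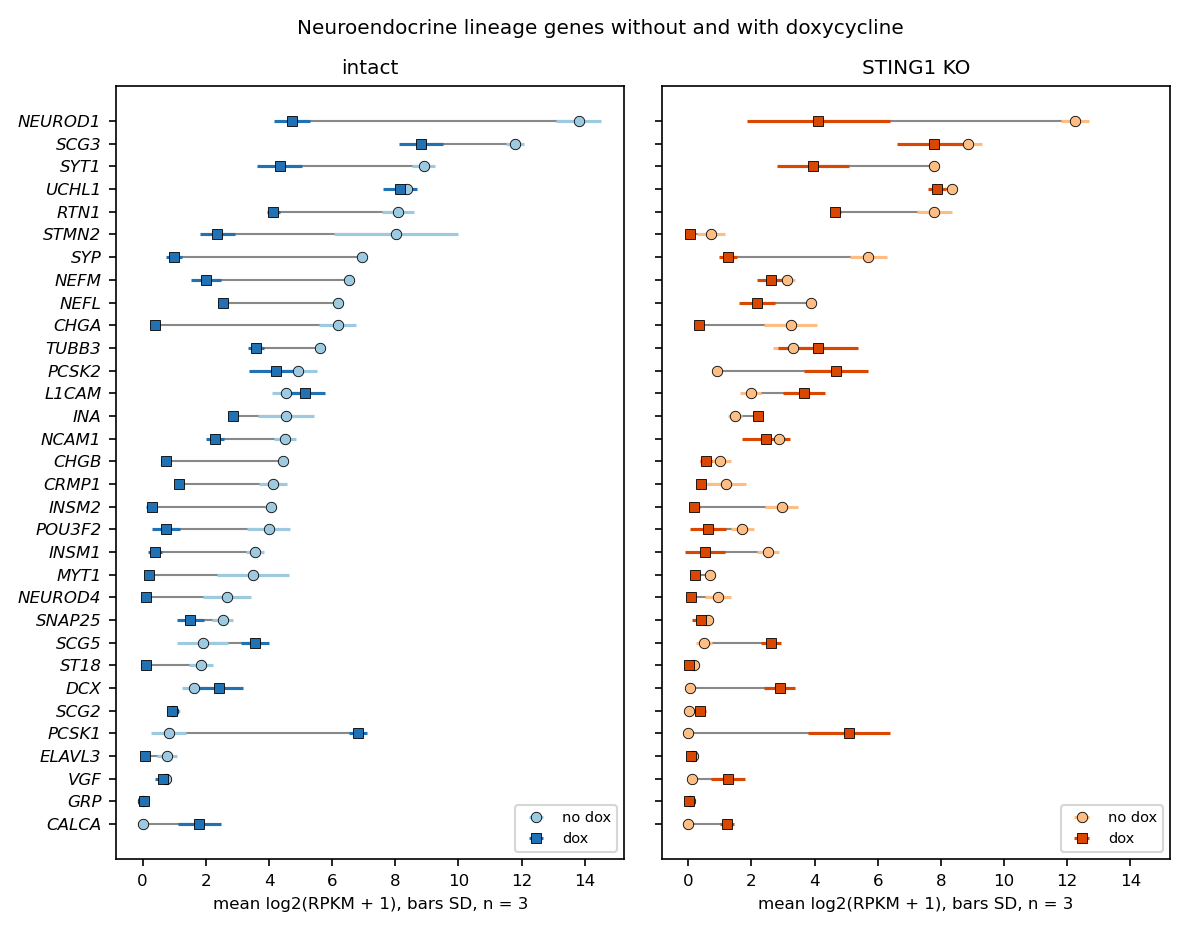
Mean level of the 32 tested neuroendocrine genes, in log2(RPKM + 1) with SD bars (n = 3), without (circles) and with doxycycline (squares), in intact cells on the left and the *STING1* KO on the right. *STMN2* runs from 8.03 to 2.37 in intact cells and starts at 0.72 in the KO, and *PCSK2* moves to the right in the KO.

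Of the other SCLC subtype markers, *POU2F3* stayed under the filter on low values. *YAP1*, the coactivator of the Hippo pathway, rose from 5.61, 5.90 and 5.69 to 6.89, 6.94 and 6.74 (log2 fold change 1.13 ± 0.17 SE, adjusted *P* = 3.85e-05), less than in intact cells (difference -1.44 ± 0.24 SE, adjusted *P* = 9.18e-04), where it began lower. *MYC* fell from 8.67, 8.67 and 9.38 to 6.92, 7.08 and 7.08 (log2 fold change -1.88 ± 0.22 SE, adjusted *P* = 2.43e-06), with no overlap, and its response did not differ detectably from that of intact cells (0.77 ± 0.31 SE, adjusted *P* = 0.137).

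Fewer MHC class I pathway genes were called in the *STING1* KO than in intact cells. Of 21 tested members, 6 rose and none fell, beside 12.2% and 8.07% of all tested genes. In intact cells 14 rose and 1 fell, beside 14.7% and 12.4% of all tested genes. The median log2 fold change of the tested members was 0.60 in the *STING1* KO, 1.79 in intact cells and 1.94 in the *REST* KO, beside 0.0135 for all tested genes in the *STING1* KO. *HLA-B* (chromosome 6, positions 31321649 to 31334844, hg19), a class I heavy chain, was at 1.08, 0.95 and 0.47 without and 2.10, 1.98 and 2.77 with doxycycline (log2 fold change 1.45 ± 0.30 SE, adjusted *P* = 9.82e-04). In intact cells it was at 0.77 ± 0.13 without and 5.54 ± 0.30 with doxycycline and in the *REST* KO at 0.18 ± 0.08 without and 7.39 ± 0.78 with doxycycline (SD, n = 3). The induced *STING1* KO libraries lay between the uninduced and the induced libraries of both other lines.

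*B2M*, the light chain of every class I molecule, rose from 5.09, 4.79 and 4.29 to 5.60, 6.15 and 6.45 (log2 fold change 1.35 ± 0.36 SE, adjusted *P* = 0.00685), and *TAPBP*, tapasin, which loads peptide, from 2.37, 2.26 and 1.30 to 3.92, 4.38 and 4.68 (log2 fold change 2.35 ± 0.28 SE, adjusted *P* = 2.74e-06). For these genes a difference from intact cells was not detected (-1.15 ± 0.51 SE, adjusted *P* = 0.173 for *B2M* and -0.08 ± 0.40 SE, adjusted *P* = 0.93 for *TAPBP*). *IRF1*, an interferon-induced activator of class I genes, rose from 0.82, 0.71 and 0.60 to 2.05, 1.71 and 2.13 (log2 fold change 1.26 ± 0.21 SE, adjusted *P* = 1.12e-04). *PSMB8*, an immunoproteasome subunit, was at 0.12, 0.00 and 0.00 and 0.68, 1.33 and 1.99 (log2 fold change 1.29 ± 0.26 SE, adjusted *P* = 6.84e-04), and was not called without library 60 (log2 0.96, adjusted *P* = 0.00524). *PSMB9* (chromosome 6, positions 32811913 to 32827628, hg19), its partner subunit, was listed at 0 without and stood at 1.26, 0.95 and 2.24 with doxycycline. *HLA-C* at 3.22, 3.41 and 2.82 and 3.65, 3.67 and 4.29, *TAP1* at 0.30, 0.21 and 0.06 and 0.46, 0.42 and 0.95, and *NLRC5*, the class I transactivator, at 0.01, 0.00 and 0.01 and 0.21, 0.22 and 0.29 were not called.

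The response differed from that of intact cells downward for 8 of the 21 members and upward for 2, against 3.21% and 3.91% of all tested genes. For *HLA-B* the difference was -3.32 ± 0.43 SE, adjusted *P* = 7.83e-05, and for *HLA-C* -2.20 ± 0.43 SE, adjusted *P* = 0.00354. For *PSMB8* it was -2.35 ± 0.37 SE, adjusted *P* = 5.18e-04. *PSMB9* reached a mean of 5.67 ± 0.94 (SD, n = 3) in induced intact cells, and its difference was called as well (adjusted *P* = 1.86e-04; 0.0709 with 0.1 added to RPKM). *TAP1*, a subunit of the peptide transporter, differed by -1.89 ± 0.19 SE, adjusted *P* = 4.43e-06. These 5 calls held without each library in turn. Those of *IRF1*, *IRF2* and *ERAP1* (-1.14, -1.42 and -1.20) did not: *IRF1* was not called without any 1 of libraries 55, 59 and 6 (log2 -1.09 to -1.02, adjusted *P* 0.0535 to 0.0568), *IRF2* was not called without any 1 of libraries 55, 56, 58, 59, 5 and 8 (log2 -1.45 to -1.23, adjusted *P* 0.0525 to 0.0897), and *ERAP1*, a trimming peptidase, was not called without any 1 of libraries 55, 56, 58, 59, 60, 5, 6, 7, 8 and 9 (log2 -1.28 to -1.09, adjusted *P* 0.0503 to 0.0957). The chaperones *CALR* and *PDIA3*, which fold class I chains along with many other proteins, differed upward (2.00 ± 0.37 SE, adjusted *P* = 0.00196 and 1.36 ± 0.32 SE, adjusted *P* = 0.0122). In the same comparison with the *REST* KO, 14 members differed downward and 2 upward, beside 7.14% and 5.84% of all tested genes.

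**Figure D3:**
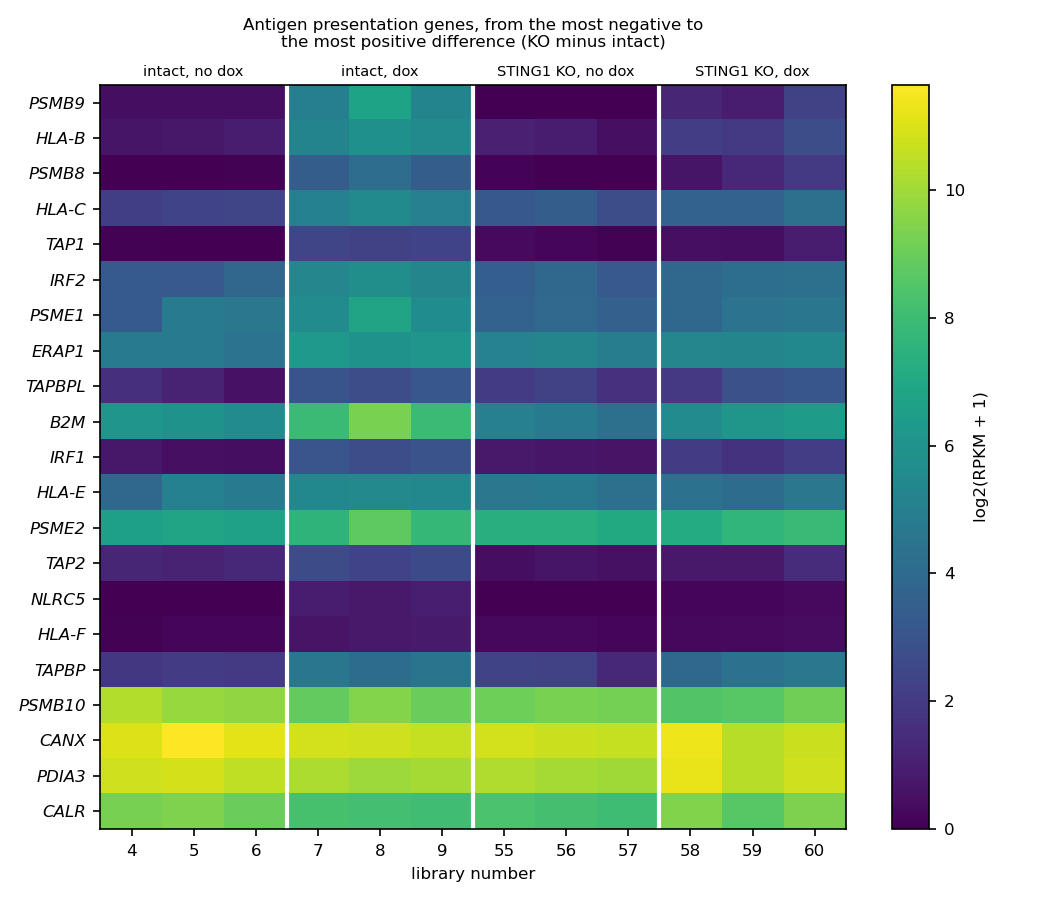
Colour map of the level, in log2(RPKM + 1), of the 21 tested MHC class I pathway genes in the single libraries of intact and *STING1* KO cells, ordered by the difference between the responses. *PSMB9* and *HLA-B*, at the top, brighten in induced intact libraries 7 to 9 and little in induced KO libraries 58 to 60; *TAPBP* brightens in both.

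The 250 bases before the start of *TAP1* are shown because its response was among those that differed, and because it is a textbook target of both interferon and NF-κB. Capitals mark matches to GAAANNGAA, a core of interferon response elements (read here on the other strand, with 2 overlapping matches at 133 and 127 bases before the start), and a match to the NF-κB motif (GGACTTTCC or GGAATTTCC, either strand) at 71 bases.
TAP1, chr6:32853705-32853954, minus strand: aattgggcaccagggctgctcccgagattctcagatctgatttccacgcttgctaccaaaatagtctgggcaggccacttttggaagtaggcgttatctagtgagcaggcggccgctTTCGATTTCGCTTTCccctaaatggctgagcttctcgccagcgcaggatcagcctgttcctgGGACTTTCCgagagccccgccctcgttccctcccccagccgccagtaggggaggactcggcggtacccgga
In the window from 250 bases before to 50 after the start, the interferon-type motif was present for 10 of 17 class I genes with a promoter in the table (58.8%), 19 of 29 interferon-stimulated genes (65.5%) and 8.53% of all tested genes. Its share was 10.6% among the genes that rose in the *STING1* KO and 7.12% among those that fell. The NF-κB motif was present for 2 of the 17 class I genes (11.8%) and 1.1% of all tested genes.

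MHC class II genes were little expressed. Of 15 members 8 were tested, and *HLA-DRA*, *HLA-DQA1* and the transactivator *CIITA* were listed at 0 in all 6 libraries. *HLA-DPA1* rose by 1.40, but was not called without any 1 of libraries 56 and 59 (log2 1.08 to 1.18, adjusted *P* 0.0593 to 0.065). *CTSS*, a protease of antigen processing, rose from 0.25, 0.46 and 0.25 to 1.50, 1.73 and 1.31 (log2 fold change 1.19 ± 0.34 SE, adjusted *P* = 0.0103), and *HLA-DQB1* fell from 1.64, 2.18 and 1.83 to 0.50, 0.87 and 0.50 (log2 fold change -1.26 ± 0.19 SE, adjusted *P* = 3.52e-05).

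Sensors of nucleic acids upstream of and beside STING were measured next. Of 16 tested genes, 5 rose and none fell, beside 12.2% and 8.07% of all tested genes, and 3 of the 5 calls held without each library in turn. *IFIH1*, which encodes the RNA sensor MDA5, went from 1.67, 0.00 and 1.65 to 4.89, 6.00 and 5.96 (log2 fold change 4.51 ± 0.53 SE, adjusted *P* = 2.41e-06). *TLR3*, the endosomal receptor for double-stranded RNA, was listed at 0 without and at 3.37, 5.26 and 4.70 with doxycycline, and its intact levels were 0.00 ± 0.00 without and 4.40 ± 0.54 with doxycycline (SD, n = 3). Both receptor genes rose in the *STING1* KO line. *DHX58*, a helicase of the same family, rose by 1.42 and was not called without library 60 (log2 1.07, adjusted *P* = 0.0507), and *NLRX1* rose by 1.05 and was not called without any 1 of libraries 55 and 59 (log2 0.97 to 0.98, adjusted *P* 0.00478 to 0.00505). *TBK1*, *IRF3* and *MAVS*, the kinase, factor and adaptor of these pathways, changed by 0.11, -0.19 and 0.05 and were not called. The rise of *IFIH1* was smaller than in intact cells (-2.63 ± 0.75 SE, adjusted *P* = 0.0345), and this was not called without any 1 of libraries 55, 57, 58, 4, 5, 8 and 9 (log2 -2.70 to -2.27, adjusted *P* 0.0517 to 0.0961).

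Interferon-stimulated genes rose in the *STING1* KO. Of 38 tested members (of 51), 21 rose and 1 fell, and each of the 21 that rose also rose in intact cells, where 28 rose, beside 12.2% and 14.7% of all tested genes. The median log2 fold change of the tested members was 1.33 in the *STING1* KO, 2.00 in intact cells and 2.30 in the *REST* KO, and with 0.1 added to RPKM the first was 2.81. *IFITM1*, a membrane protein that blocks viral entry, went from 0.52, 0.41 and 0.00 to 5.27, 6.85 and 7.45 (log2 fold change 6.21 ± 0.55 SE, adjusted *P* = 6.15e-08). *LGALS3BP*, a secreted glycoprotein, went from 5.62, 4.29 and 3.54 to 9.15, 10.60 and 10.36 (log2 fold change 5.56 ± 0.68 SE, adjusted *P* = 3.88e-06). *TRIM22*, an antiviral E3 ligase, went from 0.56, 0.00 and 0.00 to 3.59, 4.39 and 4.66. The induced means of these 3 genes were above those of induced intact cells, and the differences of the responses were 0.48, 0.13 and 0.19, none of them called. *CMPK2*, *OAS3*, *HERC6* and *UBA7* rose by 4.37, 2.12, 2.73 and 1.95, also without a called difference. *ISG15*, the ubiquitin-like modifier, rose from 1.20, 1.34 and 0.86 to 3.38, 3.46 and 4.09 (log2 fold change 2.51 ± 0.32 SE, adjusted *P* = 6.39e-06).

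Several classic members had almost no signal. *MX2* and *OASL*, as well as *IFNB1*, the interferon beta gene, were listed at 0 in all 6 libraries, and *MX1* and *OAS1* reached at most 0.02. *XAF1*, a proapoptotic interferon target, was the member that fell, from 7.85, 6.42 and 7.60 to 2.57, 5.34 and 6.02, and was not called without any 1 of libraries 55, 57 and 58 (log2 -2.49 to -1.61, adjusted *P* 0.102 to 0.227).

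For 8 interferon-stimulated genes the rise was smaller than in intact cells and for none was it larger, against 3.21% of all tested genes called downward. *SP110*, a nuclear body protein, was at 0.03, 0.00 and 0.00 without and 1.27, 1.65 and 1.83 with doxycycline, and in intact cells at 0.10 ± 0.01 without and 3.29 ± 0.01 with doxycycline (SD, n = 3; difference -1.62 ± 0.19 SE, adjusted *P* = 2.78e-05). *GBP1*, a guanylate-binding protein, went from 0.79, 0.85 and 0.10 to 4.10, 3.27 and 3.26 with a difference of -2.05 ± 0.39 SE, adjusted *P* = 0.00265. *IRF9*, the DNA-binding part of the interferon-activated complex ISGF3, went from 3.01, 2.99 and 1.89 to 4.38, 4.12 and 3.95 with a difference of -1.96 ± 0.39 SE, adjusted *P* = 0.00377. *SP100* and *SAMD9L* differed by -1.20 and -1.53. These 5 calls held without each library, whereas *ISG15* was not called without any 1 of libraries 55, 56, 58, 59, 5, 6, 7, 8 and 9 (log2 -1.60 to -1.39, adjusted *P* 0.0531 to 0.104), *IFITM2* was not called without any 1 of libraries 55, 56, 58, 59, 4 and 9 (log2 -2.20 to -1.80, adjusted *P* 0.0505 to 0.084) and *IFITM3* was not called without any 1 of libraries 55, 56, 58, 59, 5, 6, 8 and 9 (log2 -1.48 to -1.24, adjusted *P* 0.0515 to 0.0906). With 0.1 added to RPKM the difference of *GBP1* was -2.14 (adjusted *P* = 0.0733). Against the *REST* KO, 13 members differed downward and none upward, beside 7.14% and 5.84% of all tested genes.

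**Figure D4:**
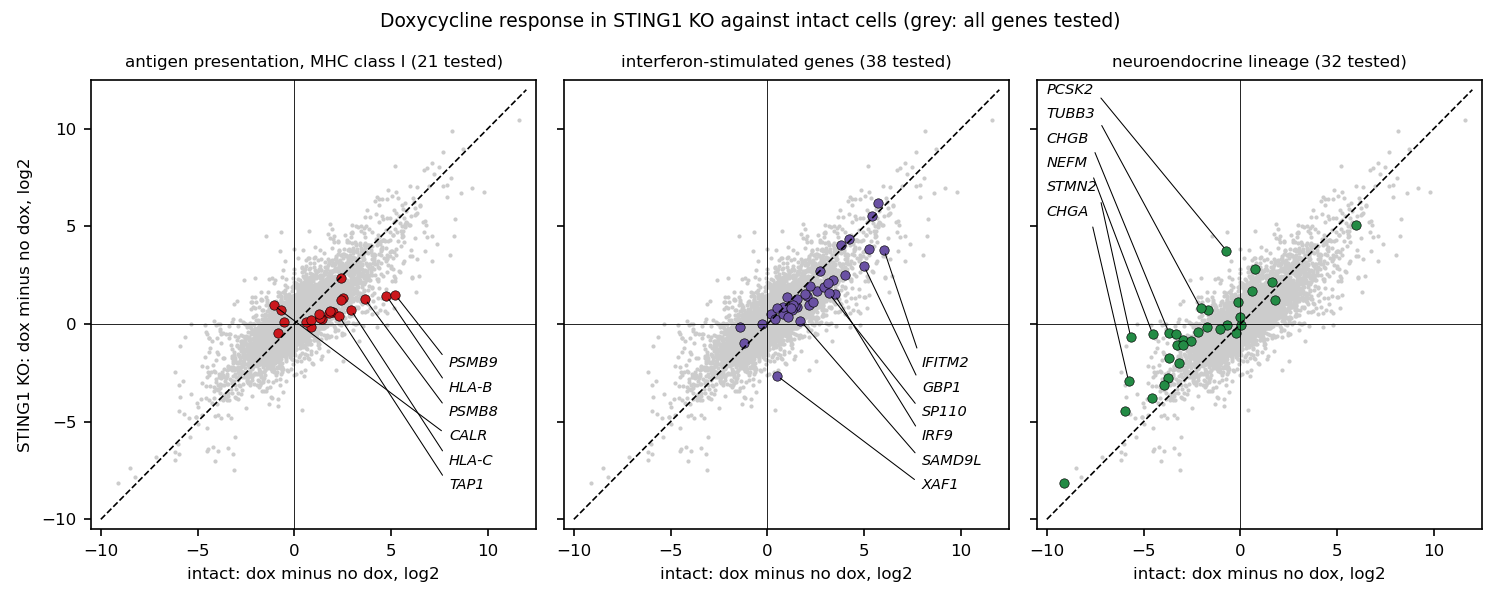
Log2 fold change with doxycycline in intact cells (horizontal axis) and in the *STING1* KO (vertical axis), both on the log2(RPKM + 1) scale, with tested genes in grey and the named list in colour; the dashed line marks equal responses. The class I genes *HLA-B* and *PSMB9* lie below the line, and *PCSK2*, *STMN2* and *NEFM* lie above it.

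Of 14 chemokine and cytokine genes tested, 3 rose, against 12.2% of all tested genes, and 9 did with 0.1 added to RPKM. *CCL2*, the monocyte attractant, went from 1.10, 0.40 and 0.60 to 6.72, 8.44 and 8.12 (log2 fold change 7.06 ± 0.36 SE, adjusted *P* = 6.25e-11), with a difference from intact cells of -0.63 ± 0.52 SE, adjusted *P* = 0.493. *CXCL12*, a ligand of CXCR4, was listed at 0 in the uninduced and at 4.80, 6.08 and 5.97 in the induced libraries. *CSF1*, the macrophage growth factor, went from 1.92, 2.39 and 1.98 to 6.05, 5.12 and 5.56 (log2 fold change 3.48 ± 0.29 SE, adjusted *P* = 2.60e-08). Its rise was smaller than in intact cells (difference -1.45 ± 0.40 SE, adjusted *P* = 0.0299), as was that of *IL33*, an alarmin of the interleukin 1 family (-1.19 ± 0.34 SE, adjusted *P* = 0.0365). Together with *IL32*, 3 of the 14 members differed downward and none upward, beside 3.21% and 3.91% of all tested genes. Of the 3 calls 0 held without each library in turn. *CSF1* was not called without any 1 of libraries 56, 59, 60, 5, 7 and 9 (log2 -1.45 to -1.19, adjusted *P* 0.058 to 0.0842). The T cell attractants *CXCL9*, *CXCL10* and *CCL5* stayed under the filter, with a highest value of 0.59 for *CXCL10*. *IL32* was at 5.62, 5.56 and 4.52 and 4.77, 7.44 and 7.63, rose less than in intact cells (-3.67 ± 1.00 SE, adjusted *P* = 0.0274), and this was not called without any 1 of libraries 55, 56, 58, 4 and 8 (log2 -3.50 to -2.75, adjusted *P* 0.0511 to 0.0726). Without library 58, 5 members of the list rose.

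Of 19 NF-κB genes tested, 6 rose, beside 12.2% of all tested genes. The feedback inhibitor *TNFAIP3* went from 2.55, 2.01 and 1.20 to 4.12, 4.44 and 4.88 (log2 fold change 2.56 ± 0.37 SE, adjusted *P* = 2.66e-05) and *NFKBIZ* from 1.13, 0.63 and 0.55 to 2.81, 3.08 and 2.89 (log2 fold change 2.16 ± 0.21 SE, adjusted *P* = 1.97e-07), and *TNFAIP2*, *RELB* and *NFKB1* rose by 2.06, 1.35 and 1.23. *ICAM1*, an adhesion molecule, rose by 1.45 and was not called without any 1 of libraries 57 and 58 (log2 1.14 to 1.26, adjusted *P* 0.0698 to 0.089). *RELB* and *TNFAIP3* rose less than in intact cells (-1.19 and -1.93), *RELB* not called without any 1 of libraries 56, 58, 5 and 9 (log2 -1.13 to -1.01, adjusted *P* 0.0526 to 0.075) and *TNFAIP3* not called without any 1 of libraries 55, 56, 58, 59, 6 and 7 (log2 -1.92 to -1.62, adjusted *P* 0.0539 to 0.0836).

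Among ligands of NK and T cell receptors, 5 of 13 tested genes rose, beside 12.2% of all tested genes, and 3 did so without library 60. *MICB* and *ULBP1*, ligands of the activating receptor NKG2D, rose by 1.36 and 1.33. *TNFRSF14*, a ligand of BTLA, went from 0.16, 0.06 and 0.01 to 2.13, 0.88 and 1.43. *CD274*, which encodes PD-L1, was at 0.91, 1.60 and 0.76 and 2.21, 1.86 and 3.23 (log2 fold change 1.34 ± 0.36 SE, adjusted *P* = 0.00606), and was not called without library 60 (log2 0.94, adjusted *P* = 0.0466). In intact cells *CD274* stood at 0.79 ± 0.18 without and 5.10 ± 0.45 with doxycycline (SD, n = 3), and the smaller rise in the KO was called (difference -2.96 ± 0.50 SE, adjusted *P* = 0.00106). *PDCD1LG2*, which encodes PD-L2, was listed at 0 in every uninduced library and in library 59, at 2.84 in library 58 and at 3.73 in library 60, and was not called without any 1 of libraries 55, 56, 57, 58 and 60 (adjusted *P* 0.0778 to 0.201).

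Mesenchymal genes rose. Of 40 tested genes of the epithelial-mesenchymal transition, 26 rose and 1 fell, beside 12.2% and 8.07% of all tested genes. In intact cells 33 rose and 2 fell, beside 14.7% and 12.4%. The median log2 fold change of the tested members was 1.78 in the *STING1* KO, 2.88 in intact cells and 3.43 in the *REST* KO. *SNAI2*, a repressor of epithelial genes, went from 0.00, 0.00 and 0.05 to 4.60, 5.96 and 6.23 (log2 fold change 5.58 ± 0.30 SE, adjusted *P* = 1.08e-10), while its relative *SNAI1* fell from 7.07, 7.66 and 7.55 to 3.86, 3.86 and 3.51 (log2 fold change -3.69 ± 0.37 SE, adjusted *P* = 3.71e-07). *AXL*, a receptor kinase of non-neuroendocrine SCLC cells, went from 1.91, 1.13 and 1.03 to 6.26, 6.17 and 7.08 (log2 fold change 5.15 ± 0.58 SE, adjusted *P* = 1.24e-06). *THBS1*, *ANXA1*, *TNC* and *CD44* rose by 5.69, 4.47, 3.52 and 2.67. *VIM*, the intermediate filament of mesenchymal cells, was at 5.11, 5.30 and 5.24 and 5.69, 5.34 and 5.80 and was not called (log2 fold change 0.39 ± 0.31 SE, adjusted *P* = 0.338).

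Several genes of the contractile apparatus stand in this list and are described together, a grouping chosen after their values were seen. *ACTA2*, smooth muscle actin, was listed at 0 without and at 7.16, 6.13 and 6.95 with doxycycline, and in intact cells at 0.55 ± 0.45 without and 10.35 ± 0.10 with doxycycline (SD, n = 3; adjusted *P* of the difference = 5.45e-06, and 0.206 with 0.1 added to RPKM). *TAGLN*, transgelin, went from 3.26, 2.84 and 2.13 to 8.61, 5.93 and 7.24 (difference -3.74 ± 0.71 SE, adjusted *P* = 0.00254). *CNN1*, calponin, went from 0.51, 0.73 and 0.29 to 3.29, 2.63 and 2.97 (difference -2.73 ± 0.30 SE, adjusted *P* = 1.31e-05). All 3 genes rose in the KO. *TPM2* was at 3.58, 3.47 and 3.15 and 3.91, 3.59 and 3.39 and was not called, with a difference of -2.27 ± 0.23 SE, adjusted *P* = 4.40e-06. *MYL9*, a myosin light chain, rose more in the KO, from 0.67, 0.48 and 0.72 to 5.68, 4.02 and 4.03 (difference 2.88 ± 0.45 SE, adjusted *P* = 4.73e-04). In all, 12 of the 40 genes differed downward and 2 upward, against 3.21% and 3.91% of all tested genes, and 9 of the 12 downward calls held without each library. With 0.1 added to RPKM the counts were 6 downward and 1 upward, and the calls not made were those of *ACTA2*, *CAV1*, *FN1*, *ITGB3*, *PLAU*, *PLAUR* and, upward, *MYL9*. *FN1*, fibronectin, differed by -1.75 and was not called without any 1 of libraries 55, 56 and 7 (log2 -1.78 to -1.48, adjusted *P* 0.0505 to 0.0623).

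Markers of other cell types were measured beside the mesenchymal genes, and their part in the result was not tested. *PTPRC*, *CD3E*, *VWF*, *DCN*, *SFTPC*, *SCGB1A1* and *ALB*, genes of leukocytes, endothelium, fibroblasts, lung epithelium and liver, were at or near 0 in the 6 libraries, with a highest value of 0.57 for *DCN*. Of 12 listed markers 2 passed the filter. *PDGFRB*, a receptor of pericytes and fibroblasts, rose from 2.15, 1.78 and 1.30 to 5.68, 5.89 and 6.36 (log2 fold change 4.24 ± 0.30 SE, adjusted *P* = 3.81e-09), and *CD14* was at 1.74, 1.60 and 0.99 and 2.36, 1.87 and 2.84 and was not called.

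Of 25 tested collagen and laminin genes 17 rose and none fell, beside 12.2% and 8.07% of all tested genes. The median log2 fold change of the tested members was 1.73 in the *STING1* KO, 1.81 in intact cells and 2.29 in the *REST* KO. *LAMA3*, a laminin chain of epithelial basement membranes, went from 2.35, 2.22 and 0.00 to 8.31, 8.12 and 7.32 (log2 fold change 6.39 ± 0.60 SE, adjusted *P* = 1.42e-07), and *COL8A1* and *COL18A1* rose by 5.01 and 4.79. No member was called as different from the intact line in its response. Against the *REST* KO, 10 differed downward and 3 upward, beside 7.14% and 5.84% of all tested genes. Of 17 tested genes of the YAP, TAZ and TEAD group, 11 rose and none fell, beside the same shares of all tested genes. Besides *CTGF*, *CYR61* and *ANKRD1*, textbook targets, rose by 5.28 and 2.67, *LATS2* by 3.39 and *AJUBA* by 3.08.

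Of 20 TGF-beta and BMP genes 6 rose and 1 fell, beside 12.2% and 8.07% of all tested genes. *TGFB2* went from 1.90, 1.85 and 1.40 to 5.66, 3.98 and 5.45 (log2 fold change 3.31 ± 0.40 SE, adjusted *P* = 3.07e-06), less than in intact cells, where it stood at 2.05 ± 0.85 without and 8.40 ± 0.30 with doxycycline (SD, n = 3; difference -3.03 ± 0.56 SE, adjusted *P* = 0.00222). *BMP4* and *BMP2* rose by 5.01 and 3.72. *SMAD9*, a mediator of BMP signals, fell from 8.66, 8.64 and 8.53 to 5.22, 5.72 and 5.23 (log2 fold change -3.21 ± 0.22 SE, adjusted *P* = 2.53e-09). AP-1 genes were less even: *FOSL2* rose from 0.49, 0.25 and 0.28 to 2.20, 1.88 and 2.14, and *FOS* was at 2.68, 2.25 and 2.73 and 4.77, 7.49 and 4.64, highest in library 59, and was not called (log2 fold change 3.08 ± 1.32 SE, adjusted *P* = 0.0743). *JUNB* rose by 1.37 and was not called without any 1 of libraries 55, 56, 57, 59 and 60 (log2 0.95 to 1.47, adjusted *P* 0.071 to 0.198).

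The count of cell cycle genes that fell turned on library 58. Of 33 tested genes, 13 fell and 3 rose, beside 8.07% and 12.2% of all tested genes, and without library 58 just 5 fell. *AURKB*, a mitotic kinase, was at 13.12, 13.08 and 13.22 and 9.97, 11.88 and 11.26 (log2 fold change -2.11 ± 0.48 SE, adjusted *P* = 0.00182), and *PLK1*, another, at 6.29, 6.48 and 6.95 and 3.66, 5.06 and 4.64 (log2 fold change -2.12 ± 0.44 SE, adjusted *P* = 8.82e-04). Library 58 was the lowest of the induced libraries for both. *MKI67*, the proliferation marker, was at 7.94, 7.80 and 8.29 and 5.69, 7.69 and 6.98 and was not called (log2 fold change -1.22 ± 0.57 SE, adjusted *P* = 0.102). The replication genes *MCM3*, *MCM5* and *PCNA* changed by 0.25, 0.27 and -0.08 and were not called. The inhibitors *CDKN1A* and *CDKN2B* rose, *CDKN1A* from 0.39, 0.32 and 0.07 to 3.06, 2.32 and 3.28 (log2 fold change 2.63 ± 0.27 SE, adjusted *P* = 4.87e-07). Intact cells gave 16 falling and 3 rising members, beside 12.4% and 14.7% of all tested genes. Medians were -0.55 in the *STING1* KO and -0.89 in intact cells.

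Cell death and stress genes moved as well. Of 19 cell death genes 7 rose and 1 fell, beside 12.2% and 8.07% of all tested genes. *CASP4*, a caspase of pyroptosis, went from 0.00, 0.04 and 0.00 to 2.78, 2.48 and 2.84 (log2 fold change 2.69 ± 0.14 SE, adjusted *P* = 6.25e-11). The survival gene *MCL1* rose by 2.36, and *BCL2L1* fell by 1.29. *FAS*, the death receptor, was at 0.00, 0.08 and 0.00 and 0.27, 0.33 and 0.27, was not called, and rose less than in intact cells, which were at 0.09 ± 0.03 without and 2.33 ± 0.64 with doxycycline (SD, n = 3; difference -1.98 ± 0.30 SE, adjusted *P* = 4.49e-04). Of 16 stress genes 8 rose and 2 fell, beside the same shares of all tested genes. *NUPR1*, a stress-induced chromatin protein, went from 2.71, 1.65 and 1.42 to 9.62, 7.93 and 9.19 (log2 fold change 6.99 ± 0.79 SE, adjusted *P* = 1.44e-06). *DDIT3*, *TRIB3*, *CHAC1* and *SESN2*, targets of the integrated stress response, rose by 2.30, 2.80, 3.14 and 3.06, and the heat shock genes *HSPA1A* and *HSPA1B* fell by 2.31 and 2.36. These heat shock genes are near-identical copies, so their split of reads is uncertain, and *HSPA1B* was not called without any 1 of libraries 55 and 60 (log2 -2.08 to -1.92, adjusted *P* 0.0781 to 0.0938). *DDIT3* and its group rose in intact cells too, and no difference between the lines was called in the stress list.

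**Figure D5:**
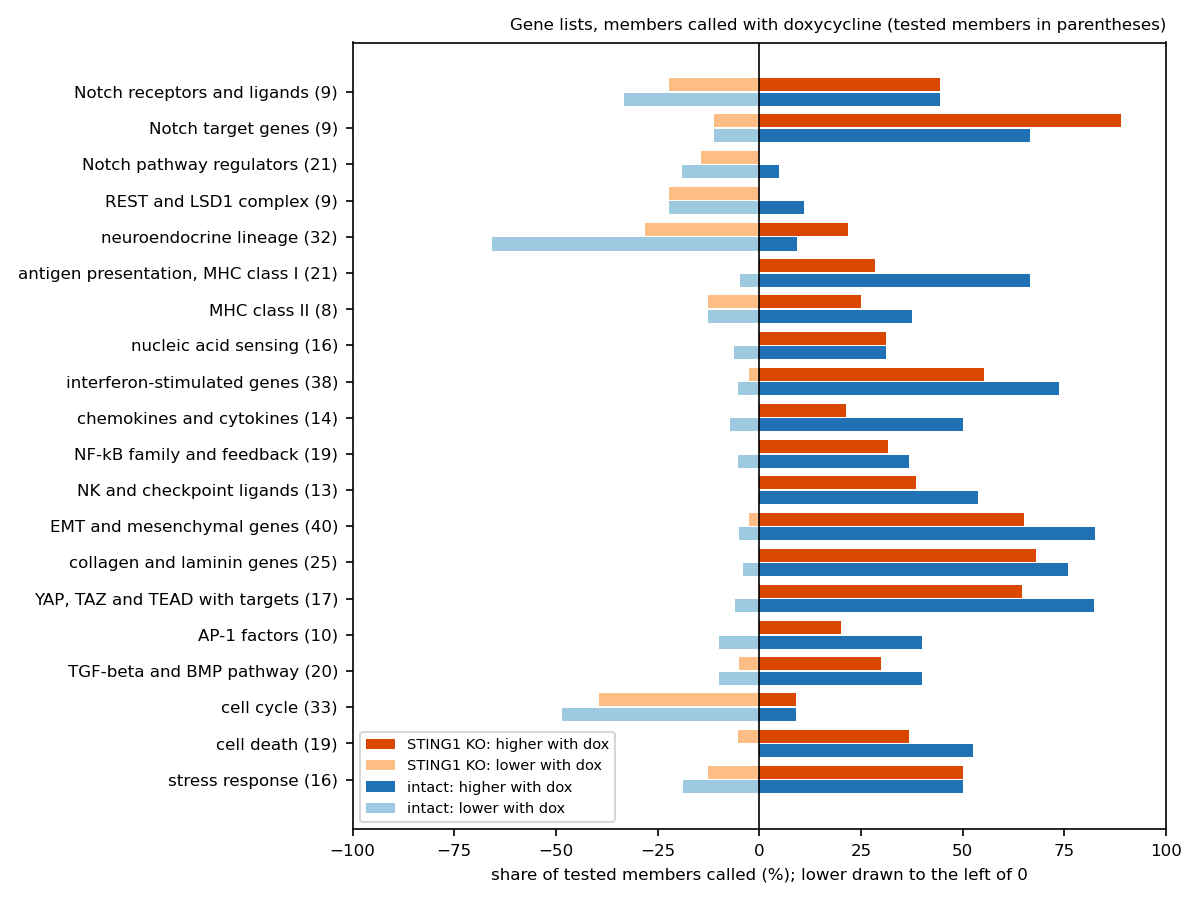
Share of the tested members of each gene list, in percent, that rose (right of 0) or fell (left of 0) with doxycycline in the *STING1* KO (orange) and in intact cells (blue). In the KO 28.6% of the MHC class I genes and 65.0% of the mesenchymal genes rose, beside 12.2% of all tested genes.

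The differences between the *STING1* KO and intact responses were of several kinds. Of the 544 upward differences 227 had opposite signs in the lines, 184 were smaller and 126 larger in the KO with the same sign, and for 240 the uninduced levels of the lines differed too. Of the 446 downward differences 134 had opposite signs, 267 were smaller and 41 larger in the KO, and 129 differed in uninduced level. *PDK4*, a kinase that limits pyruvate oxidation, was at 8.55, 8.71 and 7.85 without and 8.38, 8.50 and 8.10 with doxycycline in the KO and at 5.59 ± 2.06 without and 10.36 ± 0.22 with doxycycline (SD, n = 3) in intact cells (difference -4.82 ± 0.99 SE, adjusted *P* = 0.00475). *SMYD1*, a muscle methyltransferase, fell from 4.39, 4.85 and 5.04 to 0.92, 0.00 and 0.20 in the KO and not in intact cells, at 1.89 ± 0.51 without and 2.28 ± 0.46 with doxycycline (SD, n = 3; difference -4.79 ± 0.45 SE, adjusted *P* = 3.21e-06). *TNMD*, *A2M* and *ANGPTL7*, secreted or membrane proteins, rose in intact cells and were not called in the KO (differences -4.32, -4.19 and -4.46).

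*UBD*, a ubiquitin-like gene induced by interferon and TNF, was at 0.84, 0.00 and 0.83 and 0.00, 3.11 and 3.42 in the KO and at 0.36 ± 0.62 without and 6.68 ± 0.72 with doxycycline (SD, n = 3) in intact cells (difference -4.70 ± 0.88 SE, adjusted *P* = 0.0023); its rise in the KO itself was not called without any 1 of libraries 55, 56, 57, 59 and 60 (log2 1.00 to 1.76, adjusted *P* 0.0676 to 0.244). *ACTG2*, smooth muscle gamma actin, was listed at 0 without and at 4.26, 2.86 and 3.55 with doxycycline in the KO, and induced intact cells reached a mean of 8.06. In the other direction, *SMPD3*, a neutral sphingomyelinase, rose from 0.76, 0.86 and 0.42 to 4.51, 6.60 and 5.05 in the KO, with intact cells at 2.34 ± 0.44 without and 1.68 ± 1.11 with doxycycline (SD, n = 3; difference 5.36 ± 0.71 SE, adjusted *P* = 1.01e-04). *CPLX1*, a synaptic regulator, was at 4.69, 4.08 and 4.46 and 3.69, 2.70 and 3.45 in the KO and at 6.32 ± 0.25 without and 0.40 ± 0.36 with doxycycline (SD, n = 3) in intact cells (difference 4.80 ± 0.33 SE, adjusted *P* = 1.40e-07). *GABRA5*, a GABA receptor subunit, was listed at 0 in all 6 KO libraries, whereas intact cells fell from a mean of 6.08 to 0.73. *PNPLA5* and *GAP43*, the latter a growth cone protein, were listed at 0 in the uninduced KO libraries and stood at 2.69, 6.30 and 4.51 and at 1.84, 2.46 and 2.46 in the induced ones. Measured against the *REST* KO, 1804 differences (13.0%) were called, 812 (5.84%) upward and 992 (7.14%) downward.

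Library 59 showed the smallest change of the 3 induced libraries in 1351 of the 2815 called genes (48.0%), library 58 in 890 (31.6%) and library 60 in 614 (21.8%), with ties counted for each library. Its part in the results was not tested beyond leaving it out. An exact permutation test of 3 against 3 libraries cannot give a *P* under 0.1, so single genes were tested only within the fit across all genes.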

How the data were processed

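RNA was extracted from cell cultures with an AllPrep kit and libraries were made with a stranded mRNA kit, per the labels. Per the submitters' processing notes, the authors used cutadapt for trimming, STAR as the aligner with genome build hg19, RSEM for gene estimates and edgeR for scaling; their versions are not given in the sources used here. The deposited values are log2(RPKM + 1), the authors adding a pseudocount of 1; an exact 0 can be a failed estimate and is given as listed at 0. No read counts were used, so limma (3.58.1, R 4.3.3) with an intensity trend was fitted to the log2 values where the study applied voom to counts. All 21 H82 libraries (7 groups of 3, parental cells included) entered 1 fit. Genes at log2 1 or more in at least 3 of the 21 libraries were tested, 13903 of 20516. The difference between lines was the interaction of line and doxycycline. On simulated data the response fit recovered 180 of 200 changed genes (90.0%) with 2 false calls among the unchanged rest of the 13903 genes. The interaction recovered 144 of 200 (72.0%) with 4 false calls. The changed genes were drawn only from those with a mean log2 level above 3 in the uninduced *STING1* KO libraries. Each was shifted by more than the fold limit, and all groups shared the same starting levels. Genes with low values were thus left out of the changed genes, so these shares cannot be read as theirs. The members and the 23 gene lists were chosen with earlier results of these data known. Named genes were the members of those lists and genes taken by size of change. The latter were the 12 with the largest called log2 fold change in each direction and a mean log2 level of at least 2 in the higher group. To these came the 8 largest called differences from intact cells in each direction. Some genes that this rule names are not reported here. Alternatives were no filter, 0.1 in place of 1 added to RPKM, quantile normalisation, median centring, a fit of the groups compared only, no trend, and leaving out each library. Positions came from GENCODE release 44 mapped to GRCh37 and promoter sequences from RefSeq (GRCh38.p14, 250 bases before the start), a newer build than that of the values, so no coordinates were joined between them. No expression column lacked a sample. The mouse table was not used, nor the other human lines.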

Additional observations from a re-analysis of the deposited data

Results flagged for a closer look

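The response to doxycycline differed between the *STING1* KO and intact lines, by the interaction term in limma, for 990 genes, and between the *STING1* KO and *REST* KO lines for 1804 genes. In the first of these comparisons 3.91% of all tested genes differed upward and 3.21% downward. Upward differences included 16 of 32 neuroendocrine genes, of which 13 held without each library in turn. The median level of these 32 genes went from 1.34 to 1.26 with doxycycline in the *STING1* KO and from 4.28 to 1.90 in intact cells. Downward differences included 8 of 21 MHC class I genes (5 held, and 2 members differed upward), 8 of 38 interferon-stimulated genes (5 held), 3 of 14 chemokine and cytokine genes (0 held), 12 of 40 mesenchymal genes (9 held, 6 were called with 0.1 added to RPKM, and 2 differed upward), 5 of 17 genes of the YAP, TAZ and TEAD group (3 held, and 1 differed upward), 3 of 20 TGF-beta and BMP genes (2 held) and 3 of 19 cell death genes (2 held).

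Among single genes with values above 0 in each group, the downward differences of largest size, on the log2(RPKM + 1) scale, were -4.82 for *PDK4*, -4.79 for *SMYD1*, -4.70 for *UBD*, -4.46 for *ANGPTL7*, -4.42 for *LINC00518*, -4.32 for *TNMD* and -4.19 for *A2M*. The upward ones were 5.36 for *SMPD3*, 5.01 for *STMN2*, 4.80 for *CPLX1*, 4.58 for *NRSN1* and 4.47 for *PCSK2*. The lines differ in clone and possibly in time of culture as well as in the KO, and these cannot be told apart. Groups of 3 libraries are too small for a rule on single deviating libraries.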

How the results depend on the processing

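No paired analysis was possible because the numbers in the titles run through the whole table, so the groups compared share none. The number of genes called in the *STING1* KO was 2778 with no filter, 3658 with 0.1 added to RPKM, 2882 after quantile normalisation, 2817 after median centring, 2758 in the groups compared only and 2815 with no trend. Leaving out 1 library gave 2630 (without library 58) to 2939 (without library 59), with 1611 to 1664 genes higher and 966 to 1278 lower. Genes called as different from intact cells ran from 687 (without library 55) to 1326 (without library 4), and from the *REST* KO from 1551 to 1771. Higher genes made up 60.1% of calls, 52.8% after quantile normalisation and 54.1% after median centring. Of 213 named genes called in the *STING1* KO, 172 were called under every alternative run; of 95 named differences from intact cells, 53 were. No direction reversed in these results. Depth is unknown, so precision at low values rests on the spread of 3 libraries.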
